A study of Mus musculus with 8 samples.

Results

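The 10 genes *Slc2a1*, *Hk1*, *Hk2*, *Pfkp*, *Aldoa*, *Gapdh*, *Pgk1*, *Ldha*, *Ldhb* and *Slc16a1* encode proteins that carry glucose into a cell, break it down, convert pyruvate to lactate and carry lactate out. They were chosen by name: a row of the table was a member when the symbol before its chromosome was 1 of these 10. Each symbol matched 1 row, which gave 10 of the 23427 genes in the table, and all 10 passed the filter on low values that left 12208 genes to test. The 8 libraries hold the mRNA of primary oligodendrocyte precursor cells (OPCs), the progenitors that mature into the myelin-forming oligodendrocytes (OLs), over 4 days of culture from the start of differentiation (Day 0 to Day 3), with 2 libraries per day. All groups were wild-type (WT) cells of the C57BL/6J strain with no other allele named, and the day was the only labelled difference between them. The cells were dissociated from the cerebral cortices of 3 mouse pups of postnatal day 7 and were purified by immunopanning on a plate with antibody against PDGFRα, a receptor on the surface of OPCs. Day 0 cells grew with the mitogen PDGF-AA, and differentiation began when PDGF-AA was taken away and the thyroid hormone T3 was added, so that the loss of the mitogen and the hormone cannot be told apart here. The cultures are of purified cells, and the replicates are described as independent. The main test took the 2 libraries of a day as unpaired. Its p-values set a change against the spread between libraries of the same day, pooled over the 4 days and moderated across genes. Libraries of the same number nevertheless moved together over the days, as given below, and the main p-values do not account for that.

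Glycolysis turns glucose into pyruvate in the cytosol. Cells take glucose up through transporters such as GLUT1 (*Slc2a1*), trap it as glucose 6-phosphate with a hexokinase, commit it with phosphofructokinase, and gain ATP in the lower part of the pathway. Lactate dehydrogenase, a tetramer of LDHA and LDHB subunits, interconverts pyruvate and lactate, and the transporter MCT1 (*Slc16a1*) moves lactate across the membrane together with a proton. In the brain, mature OLs are known for supplying lactate to the axons that they wrap, and MCT1 is the transporter best known for it. Proliferating progenitor cells of many tissues are known for high glycolysis.

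The genes for the LDH subunits both fell during differentiation, and the glucose transporter gene was 1 of the 2 members that rose, so the sequence ahead of the start site is shown for these 3 genes. Each runs 5′ to 3′ over the 250 bases before the RefSeq start of transcription (build GRCm38.p6). The capitals mark every match, on either strand, to ACGTG, a form of the core of the element bound by hypoxia-inducible factors. The other form of that core, GCGTG, was not searched for and is not marked. Where the capitals read CACGTG, the match is also an E-box, the palindrome bound by Myc with Max and by other factors. The *Ldha* stretch lies at chr7:46845554-46845803 on the plus strand, that of *Ldhb* at chr6:142507958-142508207 on the minus strand, and that of *Slc2a1* at chr4:119108495-119108744 on the plus strand.
Ldha: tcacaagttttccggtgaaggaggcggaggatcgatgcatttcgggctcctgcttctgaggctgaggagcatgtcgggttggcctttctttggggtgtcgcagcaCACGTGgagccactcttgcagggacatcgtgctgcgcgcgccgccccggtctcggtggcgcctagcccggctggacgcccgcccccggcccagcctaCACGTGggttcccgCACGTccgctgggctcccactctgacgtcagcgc
Ldhb: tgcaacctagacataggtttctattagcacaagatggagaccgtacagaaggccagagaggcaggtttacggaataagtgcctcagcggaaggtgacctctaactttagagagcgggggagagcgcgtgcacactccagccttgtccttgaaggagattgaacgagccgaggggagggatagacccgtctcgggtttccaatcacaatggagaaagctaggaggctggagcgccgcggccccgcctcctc
Slc2a1: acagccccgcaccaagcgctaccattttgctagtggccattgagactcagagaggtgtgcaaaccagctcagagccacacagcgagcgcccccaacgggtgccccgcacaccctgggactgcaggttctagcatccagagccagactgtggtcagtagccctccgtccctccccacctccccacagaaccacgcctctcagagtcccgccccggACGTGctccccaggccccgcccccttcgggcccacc
The *Ldha* stretch held 3 matches, which began 145, 48 and 34 bases before the start, and 2 of them were E-boxes. RefSeq gives *Ldha* a second start downstream, whose window (chr7:46846832-46847131) held 0 matches to either motif, and the stretch shown is that of the first. The *Slc2a1* stretch held 1 match to ACGTG, 36 bases before the start, and the *Ldhb* stretch held 0. GCGTG or its reverse complement, left unmarked, can be read in both of these stretches. In windows from 250 bases before to 50 bases after each start, ACGTG or its reverse complement occurred in 19.62% of all 32851 RefSeq promoters and CACGTG in 7.15%. Over the 14 such windows of the 10 members, 8 members had at least 1 match to ACGTG in any of their windows and 2 members, *Pfkp* and *Ldhb*, had none. *Hk1* matched only in the window of its second start, and *Aldoa* in its windows 2 and 3, which overlap. The percentages are per window and the count is per gene, so they cannot be compared directly. *Slc16a1* also had an E-box, 200 bases before its start. A match of letters is a description of the window and says nothing of binding in these cells.

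No depth was stated. Estimated from the spacing of the lowest values, it was 950000 to 1520000 fragments per library, so the level of a gene below about 10 FPKM (fragments counted per kilobase of a transcript after scaling for depth) can rest on few fragments. Fragments per library were estimated at 10 to 51 for *Hk2*, 17 to 73 for *Slc16a1*, 36 to 247 for *Ldhb* and 812 to 1942 for *Gapdh*. The cells carried the markers of their label: the summed level of 8 OL markers was 1780 and 1308 FPKM in the libraries of Day 0 and 21942 and 29685 FPKM on Day 3, while that of 6 OPC markers went from 1179 and 1242 FPKM to 394 and 231 FPKM. The 7 markers of cycling cells fell at once, from 915 and 768 FPKM on Day 0 to 83.5 and 54.1 FPKM on Day 1. The libraries numbered 2 stood apart in markers of astrocytes. The sum of 7 astrocyte markers was 329 to 841 FPKM in replicate 2 and 52.1 to 90.3 FPKM in replicate 1, and all 7 reached 1 FPKM in each library of replicate 2, while 4 of them did so in all 4 libraries of replicate 1. In replicate 2 the sum rose each day, at 329, 401, 547 and 841 FPKM. In replicate 1 it was 90.3, 52.1, 52.8 and 83.0 FPKM. *Gfap* went from 154 to 603 FPKM in replicate 2. By Day 3, 0 of the 7 were called higher and 1 lower, *Sox9* (log2 fold change -2.54, adjusted p = 0.0123 by limma). With the replicate number as a block 2 were called higher, *Gfap* and *Aqp4*, and 1 lower. Markers of endothelial cells, which also carry much GLUT1, summed to at most 0.43 FPKM, with 3 of 5 at 0 in every library, and those of microglia to at most 2.51 FPKM. The 5 neuron markers in the table, of 6 listed, summed to 64.4 and 31.4 FPKM on Day 0 and 233 and 115 FPKM on Day 3. *Tubb3*, a tubulin gene, was at 60.2 and 20.8 FPKM on Day 0 and made up nearly all of the Day 3 sums, at 231 and 113 FPKM. It rose by 2.15 on the log2 scale by Day 3 (SE 0.58, adjusted p = 0.0206). *Snap25*, at 2.154 and 8.461 FPKM on Day 0, went the other way (log2 fold change -1.795, adjusted p = 0.0618). With the replicate number as a block *Snap25* was called lower (adjusted p = 0.0473). *Syt1* was lower too but was not called (-0.502, adjusted p = 0.274), and *Rbfox3* and *Stmn2* reached at most 0.305 and 0.862 FPKM. In bulk RNA, a change in the number of cells of a type and a change in the RNA per cell cannot be told apart.

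**Figure D1:**
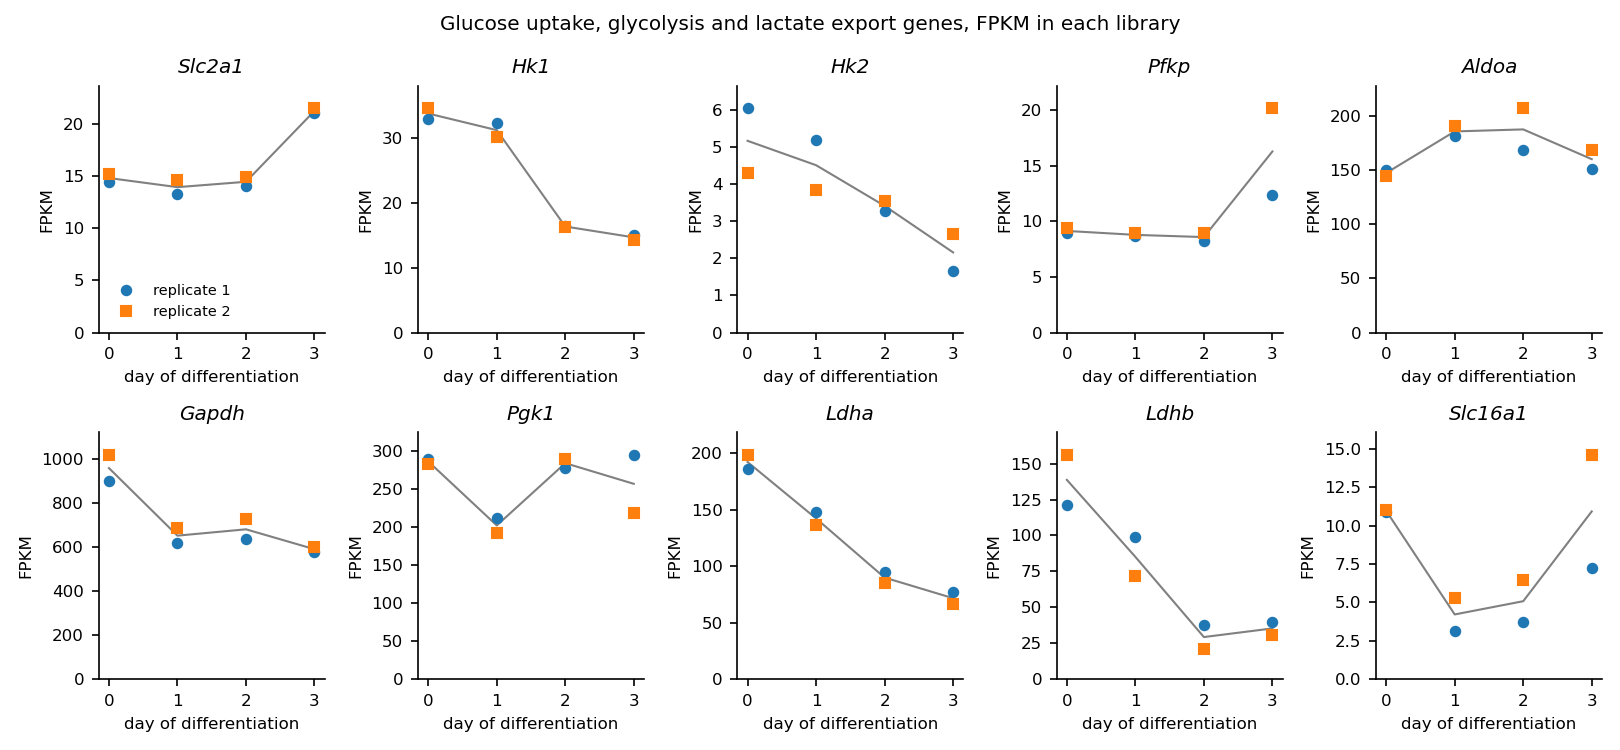
FPKM of each of the 10 genes (y axis, linear, from 0) against the day of differentiation (x axis), with a circle for replicate 1, a square for replicate 2 and a line through the mean of the 2 libraries. *Ldha*, *Ldhb* and *Hk1* step down between Day 0 and Day 2, *Slc2a1* and *Pfkp* lie higher on Day 3 than on the days before, and *Slc16a1* lies low on Day 1 and Day 2.

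From Day 0 to Day 3, 5 of the 10 genes fell, 2 rose and 3 did not pass the test. Those that fell were *Ldha*, *Ldhb*, *Hk1*, *Hk2* and *Gapdh*, those that rose were *Slc2a1* and *Pfkp*, and *Aldoa*, *Pgk1* and *Slc16a1* were not called. The comparison used limma on log2-transformed FPKM + 1, a scale that understates the change of low genes, and genes were called at a Benjamini-Hochberg adjusted p under 0.05 over all 12208 genes. Of these genes, 26.3% were called lower and 12% higher between the same days, so calls were common. The median log2 fold change of the 10 genes was -0.43, beside -0.31 over all genes tested. With median ratio scaling, which sets the typical gene equal between libraries, the median over all genes moved to -0.04, and the calls changed from 1460 higher and 3207 lower (31.3% higher) to 2137 higher and 2042 lower (51.1% higher). Under it 3 members fell, *Ldha*, *Ldhb* and *Hk1*, and the same 2 rose. Fold changes of the called members are therefore also given relative to the all-gene median. Over the same days the markers of cycling cells fell and those of OLs rose, and their part in the changes of the 10 genes was not tested.

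Glucose entry was represented by *Slc2a1*, the gene for GLUT1 (chr4:119108711-119137983, plus strand, in GENCODE on GRCm38, as for the genes below). Its level was 14.4 and 15.2 FPKM on Day 0 (replicate 1 and replicate 2, as throughout), 13.3 and 14.6 FPKM on Day 1, 14.0 and 14.9 FPKM on Day 2, and 21.0 and 21.5 FPKM on Day 3. Both libraries of Day 3 lay above all 6 libraries of the earlier days, which overlapped each other. *Slc2a1* rose 1.43-fold from Day 0 to Day 3, with a log2 fold change of 0.49 (SE 0.17, adjusted p = 0.0473), or 0.81 above the all-gene median. The call sat at the threshold: it was lost when any of the 8 libraries was left out, with adjusted p from 0.0594 to 0.171. Of the other glucose transporters, *Slc2a3* (GLUT3, best known from neurons) was at 1.06 to 7.21 FPKM and was not called (log2 fold change -1.11, adjusted p = 0.0692), whereas with the replicate number as a block it was called lower (adjusted p = 0.0354), and *Slc2a4*, the insulin-responsive GLUT4, reached at most 0.266 FPKM.

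Both hexokinases fell. *Hk1* (chr10:62268855-62379908, minus strand), the broadly expressed hexokinase of the brain, was at 32.9 and 34.5 FPKM on Day 0, 32.2 and 30.1 FPKM on Day 1, 16.4 and 16.3 FPKM on Day 2, and 15.0 and 14.3 FPKM on Day 3. Its 4 libraries of the first days lay well above the 4 of the last days, with the step between Day 1 and Day 2. The fall was 2.30-fold by Day 3, a log2 fold change of -1.15 (SE 0.15, adjusted p = 6.91e-04), or -0.84 relative to the all-gene median, and the call was kept under all alternatives tried, with adjusted p of at most 0.0108. From Day 1 to Day 2 alone, *Hk1* fell 1.91-fold (log2 fold change -0.89, SE 0.15, adjusted p = 0.0206).

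*Hk2* (chr6:82725025-82774454, minus strand), the hexokinase known from growing and insulin-responsive cells, was the lowest of the 10 genes on each day but Day 1. It was at 6.03 and 4.29 FPKM on Day 0, 5.18 and 3.83 FPKM on Day 1, 3.28 and 3.54 FPKM on Day 2, and 1.66 and 2.65 FPKM on Day 3. Day 0 and Day 1 overlapped, and both libraries of Day 3 lay below the other 6. The fall from Day 0 to Day 3 was 2.39-fold, with a log2 fold change of -0.97 (SE 0.31, adjusted p = 0.0403), or -0.65 relative to the all-gene median. The call was lost when any library but Day 1 replicate 2 was left out. Over the 8 fits that left out a library, the log2 fold change was -1.195 to -0.74. The call was also lost under median ratio scaling (adjusted p = 0.112), quantile normalization (0.258), equal sums (0.0699), no filter (0.0607) and a fit of only the 2 days (0.0790). *Hk1* made up 86.7% ± 3.13 of the summed FPKM of *Hk1* and *Hk2* on Day 0 and 87.2% ± 4.0 on Day 3 (SD, n = 2). The slope of log2(*Hk1*/*Hk2*) on day was -0.032 per day, with p = 0.795 by a two-sided exact permutation test over all 2520 arrangements of the libraries among the days (adjusted over the 2 ratios tested, 0.795). *Hk3* was listed at 0 in every library.

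*Pfkp* (chr13:6579768-6648777, minus strand), the platelet-type subunit of phosphofructokinase, which commits sugar to glycolysis, rose. It was at 8.92 and 9.36 FPKM on Day 0, 8.65 and 8.93 FPKM on Day 1, 8.21 and 8.97 FPKM on Day 2, and 12.4 and 20.2 FPKM on Day 3. The 6 earlier libraries lay within a narrow band and the 2 of Day 3 lay above it, far from each other. The rise was 1.78-fold, with a log2 fold change of 0.73 (SE 0.25, adjusted p = 0.0496), or 1.05 above the all-gene median. It rested on the library of Day 3 replicate 2, without which the log2 fold change was 0.40 (adjusted p = 0.269), and the call was also lost when any 1 of the libraries of Day 0, Day 1 and Day 2 was left out (adjusted p from 0.0672 to 0.173). The muscle-type subunit gene *Pfkm* went the other way, from 36.4 and 33.7 FPKM on Day 0 to 18.9 and 20.8 FPKM on Day 3, and fell by 0.79 on the log2 scale (SE 0.20, adjusted p = 0.0142), a call lost under median ratio scaling (adjusted p = 0.0842). The liver-type *Pfkl* was at 6.66 to 18.9 FPKM and was not called between these days (log2 fold change -0.53, adjusted p = 0.194). *Pfkm* was thus the most abundant of the 3 subunit genes on Day 0, whereas on Day 3 the range of *Pfkp*, 12.4 to 20.2 FPKM, overlapped that of *Pfkm*.

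Of the 3 members in the middle and lower pathway, *Gapdh* fell, and *Aldoa* and *Pgk1* were not called. *Gapdh* (chr6:125161715-125166467, minus strand), whose enzyme makes the NADH of glycolysis, was the most abundant of the 10 on every day. It was at 899 and 1019 FPKM on Day 0, 617 and 687 FPKM on Day 1, 636 and 725 FPKM on Day 2, and 579 and 602 FPKM on Day 3. Both libraries of Day 0 lay above the other 6, and those of Day 1 and Day 2 overlapped. *Gapdh* fell 1.47-fold from Day 0 to Day 1 (log2 fold change -0.56, SE 0.14, adjusted p = 0.0408), the only member called over that day, against 7.56% of all genes lower and 5.04% higher. By Day 3 the fall was 1.62-fold (log2 fold change -0.70, SE 0.14, adjusted p = 0.00641), or -0.38 relative to the all-gene median. The Day 3 call was lost without Day 0 replicate 2 (log2 fold change -0.606), under median ratio scaling (adjusted p = 0.102) and under quantile normalization (adjusted p = 0.166). The Day 1 call was lost when any library of Day 0, Day 1 or Day 2 was left out. Over all 8 fits that left out a library, its log2 fold change was -0.645 to -0.465. That call was also lost under 6 of the 9 other alternatives (adjusted p up to 0.162). *Gapdh* is often used as a reference gene, and its level was higher in replicate 2 on all 4 days.

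*Aldoa* (chr7:126795234-126800751, minus strand), the aldolase that splits the 6-carbon sugar, was at 149.8 and 144 FPKM on Day 0, 181 and 190.0 FPKM on Day 1, 168 and 207 FPKM on Day 2, and 151 and 169 FPKM on Day 3. Day 3 lay above both libraries of Day 0 by a margin smaller than the spread on Day 3, with a log2 fold change of 0.12 (SE 0.14, adjusted p = 0.534). *Pgk1* (chrX:106187100-106203699, plus strand), which makes the first ATP that glycolysis pays back, was at 289.6 and 284 FPKM on Day 0, 212 and 192 FPKM on Day 1, 279 and 290.2 FPKM on Day 2, and 295 and 219 FPKM on Day 3. Both libraries of Day 1 were lower than the other 6, but neither the step down (log2 fold change -0.50, SE 0.16, adjusted p = 0.0771) nor the step up to Day 2 (0.49, SE 0.16, adjusted p = 0.125) passed. With median ratio scaling the step up was called (log2 fold change 0.69, adjusted p = 0.0427). The Day 3 libraries of *Pgk1* spanned the range of Day 0, with a log2 fold change of -0.17 (SE 0.16, adjusted p = 0.419) that turned to 0.15 under median ratio scaling.

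The largest falls among the 10 genes were those of the lactate dehydrogenase subunits. *Ldha* (chr7:46841475-46855627, plus strand), the gene of the subunit that is abundant in muscle and is known for favouring lactate formation, was at 186 and 199 FPKM on Day 0, 148 and 136 FPKM on Day 1, 95.1 and 84.7 FPKM on Day 2, and 77.0 and 66.2 FPKM on Day 3. Its libraries did not overlap between any 2 days, and each day lay below the day before. *Ldha* fell 2.68-fold from Day 0 to Day 3, with a log2 fold change of -1.41 (SE 0.13, adjusted p = 1.86e-04), or -1.10 relative to the all-gene median. From Day 1 to Day 2 it fell 1.58-fold (log2 fold change -0.66, SE 0.13, adjusted p = 0.0392), and the steps before and after it were not called (adjusted p = 0.0745 and 0.319).

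*Ldhb* (chr6:142490249-142507957, minus strand), the gene of the subunit that is abundant in heart and is known for favouring lactate use, was at 121 and 156 FPKM on Day 0, 98.6 and 71.5 FPKM on Day 1, 37.5 and 21.0 FPKM on Day 2, and 39.8 and 30.7 FPKM on Day 3. The days separated in the same order as for *Ldha* up to Day 2, and Day 2 and Day 3 overlapped. *Ldhb* fell 3.93-fold by Day 3, the largest fall of the 10, with a log2 fold change of -1.95 (SE 0.29, adjusted p = 0.00129), or -1.63 relative to the all-gene median. Most of it came between Day 1 and Day 2, when *Ldhb* fell 2.91-fold (log2 fold change -1.55, SE 0.29, adjusted p = 0.0298). The Day 3 calls of *Ldha* and *Ldhb* were kept under all alternatives tried, with adjusted p of at most 0.00436 and 0.0188. Of all genes, 1.73% were called lower and 2.16% higher from Day 1 to Day 2, beside 3 of the 10 members lower (*Hk1*, *Ldha* and *Ldhb*) and 0 higher, where 1 was higher at an unadjusted p under 0.05. Each of those 3 calls was lost when any library of Day 0, Day 1 or Day 2 was left out, except that *Ldhb* was kept without Day 2 replicate 1 (adjusted p up to 0.241). Each was also lost in a fit of only the 2 days (adjusted p up to 0.140), but that fit called 0 of all 12208 genes between these days. Without the trend each was lost too, where 82 of all genes were called higher and 39 lower. The call of *Ldha* was also lost under median ratio scaling.

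The balance of the subunit transcripts was followed as the share of *Ldhb* in the summed FPKM of both genes. Day 0 libraries had shares of 39.5% and 44.0%, Day 1 libraries 40.0% and 34.4%, Day 2 libraries 28.3% and 19.8%, and Day 3 libraries 34.1% and 31.7%, so that *Ldha* was the more abundant in all 8 libraries. Day 2 held the lowest shares, and those of Day 3 lay between Day 2 and Day 0. As day means the ratio of *Ldhb* to *Ldha* was 0.719 ± 0.0946, 0.595 ± 0.0995, 0.321 ± 0.104 and 0.491 ± 0.0371 (SD, n = 2). The slope of log2(*Ldhb*/*Ldha*) on day was -0.26 per day, and a two-sided exact permutation test over 2520 arrangements gave p = 0.123 (0.246 adjusted over the 2 ratios), where the smallest p this design allows is 0.000794. A linear trend of the balance over the days was thus not detectable, although both genes fell, and the low shares of Day 2 were not tested on their own. *Ldhc*, known from testis, was listed at 0 in every library.

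**Figure D2:**
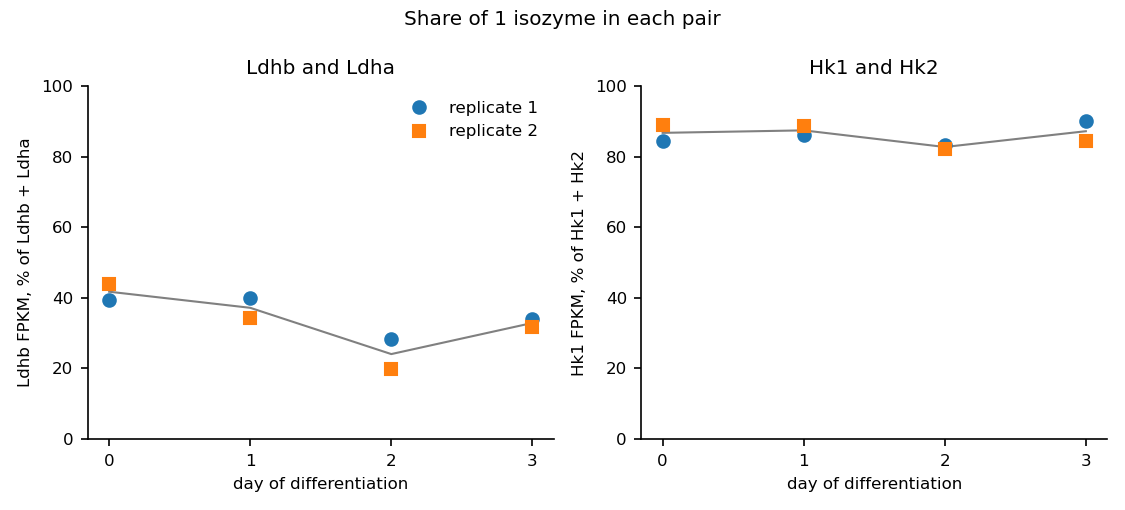
Share of *Ldhb* in the summed FPKM of *Ldhb* and *Ldha* (left) and of *Hk1* in that of *Hk1* and *Hk2* (right), in percent (y axis, 0 to 100) against the day of differentiation (x axis), with a circle for replicate 1, a square for replicate 2 and a line through the mean. *Ldhb* stays under 50 percent in all 8 libraries and is lowest on Day 2, at 19.8% and 28.3%, and *Hk1* stays between 82.1% and 90.0%.

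*Slc16a1* (chr3:104638668-104658462, plus strand), the gene for the lactate transporter MCT1, ended where it began, with a dip between. It was at 10.9 and 11.0 FPKM on Day 0, 3.13 and 5.30 FPKM on Day 1, 3.71 and 6.45 FPKM on Day 2, and 7.25 and 14.6 FPKM on Day 3. All 4 libraries of Day 1 and Day 2 lay below the other 4, and the libraries of Day 3 spanned those of Day 0. From Day 0 to Day 1 the mean was 2.60-fold lower, with a log2 fold change of -1.23 (SE 0.38, adjusted p = 0.0751) that was not called, whereas with the replicate number as a block it was called (adjusted p = 0.0206). From Day 2 to Day 3 it was 2.15-fold higher (log2 fold change 0.94, SE 0.38, adjusted p = 0.315), which was not called either. Over all 3 days *Slc16a1* had a log2 fold change of -0.08 (SE 0.38, adjusted p = 0.889), which turned to 0.21 under median ratio scaling. A rise of this lactate exporter with differentiation was therefore not detectable against Day 0.

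The replicates differed in *Slc16a1* on every day but Day 0: replicate 2 was higher on 4 of 4 days, by a median of 0.64 on the log2 scale of FPKM + 1. On Day 3, where the libraries were at 7.25 and 14.6 FPKM, the 7 astrocyte markers summed to 83.0 and 841 FPKM. Replicate 2 was also the higher on 4 of 4 days in *Pfkp* (median difference 0.09), *Slc2a1* (0.07) and *Gapdh* (0.17). *Ldhb*, *Ldha*, *Pgk1* and *Hk1* were lower in replicate 2 on 3 of 4 days. The part of the astrocyte transcripts in these values was not tested.

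**Figure D3:**
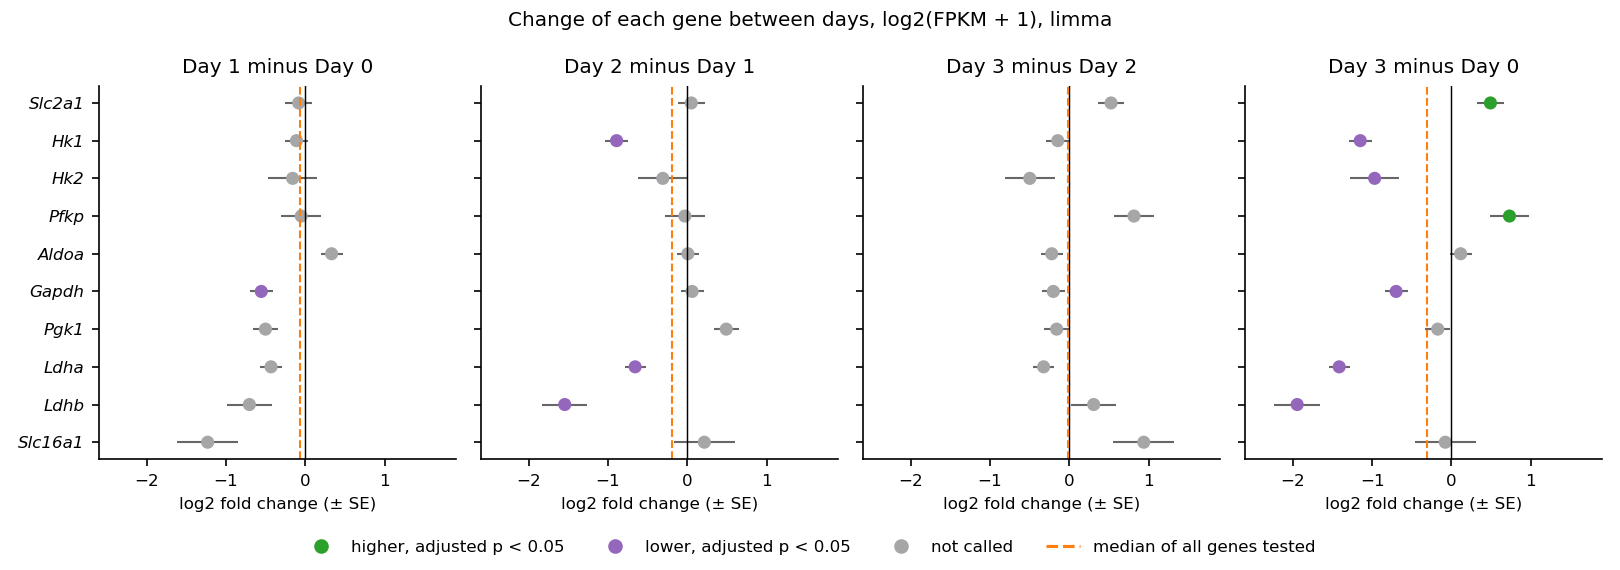
Log2 fold change of log2(FPKM + 1) with its SE (x axis) for each of the 10 genes (y axis) in the 4 comparisons of days, with called genes in green (higher) or purple (lower), uncalled genes in grey, and the median of all 12208 genes as a dashed line. Most called genes lie in the panel of Day 3 minus Day 0, with *Ldhb* and *Ldha* farthest to the left, and no gene is called in the panel of Day 3 minus Day 2.

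The last step, from Day 2 to Day 3, gave 0 calls among the 10 genes by limma, against 0.246% higher and 0.0491% lower over all genes. At an unadjusted p under 0.05, 3 members were higher (*Slc2a1*, *Pfkp* and *Slc16a1*, with log2 fold changes of 0.53, 0.81 and 0.94) and 1 was lower (*Ldha*, -0.33). From Day 0 to Day 1, 0 members were called higher and 1 was higher at an unadjusted p under 0.05, namely *Aldoa* (log2 fold change 0.33, adjusted p = 0.172), while 5 were lower at that threshold (*Gapdh*, *Pgk1*, *Ldha*, *Ldhb* and *Slc16a1*). The shares of all genes given here are those of adjusted calls. No share of all genes at the unadjusted threshold is given, so counts at that threshold, in any comparison, cannot be set against a background. The median log2 fold changes of the 10 genes over the 3 successive steps were -0.30, -0.01 and -0.15, beside -0.07, -0.19 and -0.02 over all genes tested. Across all genes the split of calls from Day 1 to Day 2 went from 55.6% higher to 78.2% higher with median ratio scaling, and that from Day 0 to Day 1 from 40.0% to 50.1% with quantile normalization.

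Since FPKM is a level per length, the genes can be ranked against each other within a day. On Day 0 the mean levels ran, in FPKM, from *Gapdh* (959) through *Pgk1* (287), *Ldha* (192), *Aldoa* (147), *Ldhb* (139), *Hk1* (33.7), *Slc2a1* (14.8), *Slc16a1* (11.0) and *Pfkp* (9.14) to *Hk2* (5.16), and only *Aldoa* and *Ldhb* overlapped in their libraries. By Day 3 *Aldoa* (159.8) stood above *Ldha* (71.6) and *Ldhb* (35.3), and *Slc2a1* (21.3) stood above *Pfkp* (16.3), *Hk1* (14.7) and *Slc16a1* (10.9). The libraries of *Pfkp*, *Hk1* and *Slc16a1* overlapped from each to the next on Day 3. *Hk1* and *Slc2a1* thus changed places, and in each library of Day 0 *Hk1* was the higher while in each library of Day 3 *Slc2a1* was. Parts of some transcripts are shared with processed pseudogenes, so counting could split their fragments: 54.7% of the 31-base words of *Pgk1*, 33.0% of *Ldhb*, 27.2% of *Gapdh*, 19.6% of *Ldha* and 13.5% of *Aldoa* occur in another annotated gene, against at most 0.22% for the other 5. *Pfkp*, *Gapdh* and *Aldoa* also overlap a protein-coding gene on the other strand, and whether fragments were counted by strand was not stated.

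The rest of the glycolytic enzymes and sugar transporters, 26 further genes in a list chosen for their roles, were read beside the members. Over all genes tested, 12% were called higher and 26.3% lower from Day 0 to Day 3, shares to set beside the counts of each list below. Of the 26, 25 were in the table and 15 passed the filter. Between Day 0 and Day 3, 3 rose and 3 fell, with a median log2 fold change of -0.15, and 4 were called lower with the replicate block, *Slc2a3* being the fourth. Those that fell were abundant genes of the lower pathway and 1 phosphofructokinase: *Pkm*, the pyruvate kinase gene, went from 452 and 465 FPKM to 198 and 175 FPKM (log2 fold change -1.30, SE 0.13, adjusted p = 2.59e-04), *Eno1*, the ubiquitous enolase, from 469 and 462 FPKM to 237 and 238 FPKM (-0.97, SE 0.14, adjusted p = 0.00133), and *Pfkm* as given above. Those that rose were *Eno2*, the enolase named for neurons, from 1.24 and 1.24 FPKM to 12.9 and 16.7 FPKM (2.81, SE 0.33, adjusted p = 4.73e-04), *Eno3*, the enolase named for muscle, from 0.905 and 1.70 FPKM to 5.64 and 2.90 FPKM (1.17, SE 0.36, adjusted p = 0.0333), and *Bpgm*, which makes 2,3-bisphosphoglycerate, from 52.3 and 55.2 FPKM to 74.5 and 78.7 FPKM (0.50, SE 0.14, adjusted p = 0.0243). Among enolases *Eno1* remained the main transcript, at 237 FPKM or more on Day 3 against at most 16.7 FPKM for *Eno2*. Of the neuron markers, *Tubb3* and with it the sum were higher on Day 3 too, while *Snap25* and *Syt1* were lower, as given above. The part of neuron transcripts in the rises of *Eno2* and *Slc16a7* was not tested. The calls of *Pkm*, *Eno1* and *Eno2* were kept when any library was left out, whereas those of *Eno3*, *Bpgm* and *Pfkm* were each lost without at least 3 of the libraries (adjusted p up to 0.174, 0.118 and 0.0871).

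Besides *Slc16a1*, 1 transporter of lactate rose and 1 chaperone fell. Of 7 further monocarboxylate transporters and their chaperones, 5 passed the filter, and these were the genes called by Day 3. *Slc16a7*, the gene for MCT2, a transporter of high affinity best known from neurons, went from 3.23 and 4.04 FPKM on Day 0 to 14.4 and 8.63 FPKM on Day 3 (log2 fold change 1.40, SE 0.31, adjusted p = 0.00879), and its libraries of Day 3 thereby overlapped those of *Slc16a1*. That call was lost without Day 0 replicate 1 or Day 3 replicate 1 (adjusted p up to 0.0642). *Emb*, a chaperone of these transporters, fell from 10.2 and 9.64 FPKM to 4.55 and 5.57 FPKM (log2 fold change -0.85, SE 0.24, adjusted p = 0.0240), a call lost under median ratio scaling and quantile normalization (adjusted p up to 0.179) and without Day 0 replicate 1, Day 0 replicate 2 or Day 3 replicate 1 (adjusted p up to 0.117). *Bsg*, the chaperone basigin that brings MCT1 to the membrane, was far more abundant, at 155 to 248 FPKM over all libraries, with a log2 fold change of -0.17 (adjusted p = 0.563). *Slc16a3*, the gene for MCT4 of strongly glycolytic cells, was at 0 to 1.11 FPKM.

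At the branch from pyruvate into mitochondria the called genes rose. Of 14 genes of pyruvate transport and the pyruvate dehydrogenase complex, 13 passed the filter, 3 rose by Day 3 and 0 fell, while 2 were lower at an unadjusted p under 0.05 and 1 was called lower with the replicate number as a block. *Pdk2*, a kinase that switches pyruvate dehydrogenase off, went from 8.35 and 7.92 FPKM on Day 0 to 24.1 and 20.4 FPKM on Day 1, 49.3 and 54.4 FPKM on Day 2, and 55.9 and 47.0 FPKM on Day 3. It rose by 2.52 on the log2 scale by Day 3 (SE 0.17, adjusted p = 6.27e-05), a call kept under all alternatives tried. The related kinase gene *Pdk3* went from 12.7 and 11.0 FPKM to 29.3 and 42.8 FPKM (log2 fold change 1.51, SE 0.32, adjusted p = 0.00664), lost without Day 0 replicate 2 or Day 3 replicate 2 (adjusted p up to 0.0528). *Mpc1*, a subunit of the mitochondrial pyruvate carrier, went from 66.1 and 81.8 FPKM to 112 and 140.4 FPKM (0.76, SE 0.24, adjusted p = 0.0364), a call lost when any of 5 libraries was left out (adjusted p up to 0.191). The genes of the dehydrogenase subunits *Pdha1*, *Pdhb* and *Dlat* were not called, with log2 fold changes of -0.48, -0.01 and -0.23. *Pdha1* lay at the threshold (adjusted p = 0.0503 by limma). It was the gene called lower with the replicate number as a block (adjusted p = 0.0348).

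**Figure D4:**
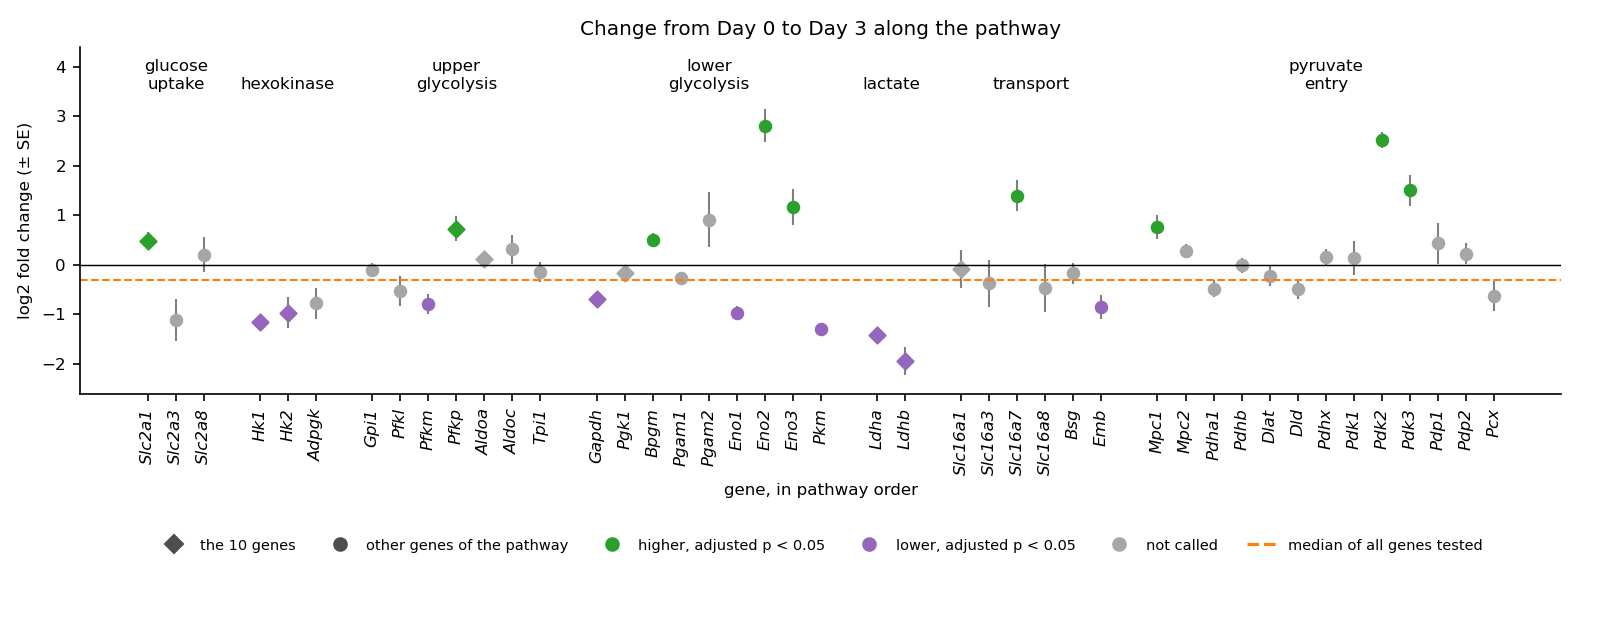
Log2 fold change from Day 0 to Day 3 with its SE (y axis) of the genes that passed the filter, in pathway order from glucose uptake to pyruvate entry (x axis), with diamonds for the 10 genes and circles for the others, green for called higher, purple for called lower and grey for not called, and the median of all genes tested as a dashed line at -0.31. *Hk1*, *Hk2*, *Eno1*, *Pkm*, *Ldha*, *Ldhb* and the uncalled *Slc2a3* lie near or below -1, and *Eno2* and *Pdk2* lie above 2.

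Genes on side routes of glucose moved in both directions. In the pentose phosphate pathway, which makes NADPH and ribose, 7 of 7 genes were tested, 1 rose and 3 fell by Day 3, and with the replicate block *Tkt*, transketolase, was called lower too (adjusted p = 0.0406, against 0.123 without it). *Taldo1*, transaldolase, went from 161 and 116 FPKM on Day 0 to 471 and 416 FPKM on Day 3 (log2 fold change 1.69, SE 0.18, adjusted p = 3.01e-04), and *Rpia* (-1.05), *Pgls* (-0.79) and *G6pdx* (-0.43), the gene of the entry enzyme, fell. The *G6pdx* and *Rpia* calls were lost under median ratio scaling, where 2 genes of this list rose and 1 fell, and also without either library of Day 0 or of Day 3 for *G6pdx* and without Day 0 replicate 1 or Day 3 replicate 2 for *Rpia* (adjusted p up to 0.143 and 0.21). Among genes of glycogen metabolism, *Ugp2*, *Pygb* and *Pgm1* rose (log2 fold changes of 0.99, 0.71 and 0.66), and *Gys1*, the glycogen synthase gene, fell (-1.08). The call of *Gys1* was kept when any library was left out, whereas that of *Pgm1* was lost without 7 of the 8 libraries, that of *Pygb* without 5 and that of *Ugp2* without 2 (adjusted p up to 0.214, 0.221 and 0.0565). Of 5 genes of the enzymes that set fructose 2,6-bisphosphate, the activator of phosphofructokinase, 3 were tested and 0 were called by limma, with 0 at an unadjusted p under 0.05 as well and 1 called higher with median ratio scaling.

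The transcripts of factors known to act on these genes were also read. *Myc*, a factor of proliferating cells that binds E-boxes, was at 59.8 and 84.6 FPKM on Day 0, 61.9 and 42.4 FPKM on Day 1, 22.6 and 18.8 FPKM on Day 2, and 15.7 and 8.28 FPKM on Day 3. Its log2 fold change by Day 3 was -2.54 (SE 0.31, adjusted p = 5.39e-04), kept under all alternatives tried. *Mxi1*, the gene of a Max partner that opposes Myc, rose from 12.8 and 11.0 FPKM to 26.0 and 20.3 FPKM (0.91, SE 0.20, adjusted p = 0.00788), lost without Day 0 replicate 2 (adjusted p = 0.0597). These were the called genes among the 6 tested of 8 in the Myc and Max list, with 2 called lower when the replicate number was a block.

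Of 16 genes of the hypoxia response outside glycolysis, 13 were tested, 5 rose and 1 fell by Day 3. Over all genes tested, 12% were called higher and 26.3% lower. Not all of the 5 rises were kept when a library was left out. The one that fell was *Hif1a* itself, from 93.2 and 93.6 FPKM to 50.5 and 46.5 FPKM (log2 fold change -0.93, SE 0.16, adjusted p = 0.00273). The largest rises were those of *Vegfa*, a growth factor gene, from 2.30 and 1.12 FPKM to 13.2 and 16.0 FPKM (2.55, SE 0.48, adjusted p = 0.00412), *Ndrg1*, from 0 and 0.282 FPKM to 4.44 and 4.33 FPKM (2.25, SE 0.40, adjusted p = 0.00293), and *Bnip3*, a gene of mitochondrial clearance, from 8.17 and 11.1 FPKM to 21.9 and 29.7 FPKM (1.33, SE 0.22, adjusted p = 0.00237). Over the same days the members moved in both directions. *Slc2a1* and *Pfkp* rose, *Ldha*, *Ldhb*, *Hk1*, *Hk2* and *Gapdh* fell, and *Aldoa*, *Pgk1* and *Slc16a1* were not called. The calls of *Slc2a1*, *Pfkp* and *Hk2* were lost in most fits that left out a library, as given above. A part of hypoxia-inducible factors in these changes was not tested. *Ndrg1* is also known from the myelinating cells of nerves, and its Day 0 level was near the floor of detection, so its log2 fold change depends on the added 1.

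The genes whose log2 levels followed those of a member most closely were read as a description over the 8 libraries, which share their days and their replicate differences, among tested genes with a mean of at least 10 FPKM. For *Ldha* they were *Myh10* (Pearson r = 0.997), *Rps6* (0.996) and *Rps25* (0.995), out of 6481 genes compared. *Rps6* and *Rps25* encode ribosomal proteins, and their day means went from 684 to 224 FPKM and from 538 to 198 FPKM, while *Myh10*, a non-muscle myosin, went from 50.9 to 7.13 FPKM. For *Ldhb* they were *Spon1* (0.989), *Tbl3* (0.986) and *Cpsf1* (0.984). Among the members, *Hk1* followed *Ldha* with r = 0.968 and *Ldhb* followed it with r = 0.935. *Slc16a1* was followed by *Gabpb1* (0.949), *Prdx6* (0.947) and *Stat3* (0.937), and its r with *Ldha* was -0.04.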

How the data were processed

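The authors made stranded mRNA libraries, read them as paired ends, ran the reads through OmicSoft ArrayStudio, and deposited 1 table of FPKM, with a column per library and no pooling. FPKM scales each library to its mapped fragments and each gene to its length, so a rise of a few abundant genes lowers the values of the rest. The submitters' processing notes name the build mm10, and the aligner is not given in the sources used here. Each library's day and number are those of its label. The labels and the methods describe the growth medium differently, and the methods were followed.

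Genes with at least 1 FPKM in at least 2 of the 8 libraries (12208 of 23427) were tested with limma 3.58.1 in R 4.3.3 (lmFit, eBayes with a trend) on log2(FPKM + 1), with a term for each of the 4 days and p-values adjusted by the method of Benjamini and Hochberg. Isozyme ratios were tested by exact permutation of the libraries. Scripts used Python 3.11.15, pandas 2.3.3, scipy 1.17.1 and matplotlib 3.10.9, and the tests were tried on simulated data. Locations came from GENCODE, and start sites and promoters from RefSeq. Depth was estimated from the FPKM steps of low genes with 1 transcript: 63.5% to 69.3% of them fell within 0.1 of a whole number of fragments, against 16.8% to 21.7% with gene lengths shuffled, too few for a count test.

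The 10 members and the gene lists were chosen with earlier results of these data known. Named genes are the members, the genes with up to the 3 largest rises and falls among those called from Day 0 to Day 3 in each list, and abundant or absent relatives that place a member. Some genes of the lists are not reported here. The 3 genes closest to *Ldha*, *Ldhb* and *Slc16a1* were named by Pearson r. The same-numbered libraries moved together around their day means (correlations of 0.164 to 0.285 over the 6 pairs of days). The numbers were therefore taken to pair them in the replicate block, an alternative, but not in the main fit. Neither the labels nor the methods say that they share an isolation. With the block, 1617 of all genes were called higher and 3551 lower from Day 0 to Day 3, against 1460 and 3207 without it. As alternatives the fit was repeated without 1 library at a time, without the trend, with the replicate block, on the libraries of the 2 days alone, with a pseudocount of 0.1, with no filter or with a filter of at least 10 FPKM in 1 library, and after scaling to equal sums, by median ratios or by quantiles. For the ratios they were a pseudocount, ranks, the block and each library left out.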

Additional observations from a re-analysis of the deposited data

How the results depend on the processing

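Across the 17 alternatives, *Ldha*, *Ldhb* and *Hk1* kept their fall from Day 0 to Day 3 in each one and *Aldoa* stayed uncalled. The 2 rises became 1 with a pseudocount of 0.1 or no filter and 0 in a fit of the 2 days alone or without the trend, and lay at 0 to 1 when a library was left out. The 5 falls became 3 under median ratio scaling, quantile normalization and without Day 0 replicate 2, and lay between 3 and 5 over the fits that left out a library. The 1 fall from Day 0 to Day 1 became 0 with no filter, equal sums, median ratio scaling, quantile normalization, a fit of the 2 days alone or no trend, became 2 with the replicate block, and lay at 0 to 2 when a library was left out. The 3 falls from Day 1 to Day 2 became 1 with no filter and 0 in a fit of the 2 days alone or without the trend, lay between 0 and 3 when a library was left out, and 1 gene was called higher under median ratio scaling. The log2 fold change of *Pgk1* by Day 3 turned positive under median ratio scaling (0.15), quantile normalization (0.17) and without Day 3 replicate 2 (0.043), and lay between -0.386 and 0.043 when a library was left out. That of *Slc16a1* did so under equal sums (0.066), median ratio scaling (0.21), quantile normalization (0.27) and without Day 3 replicate 1 (0.384), and lay between -0.537 and 0.384 when a library was left out. The slope of log2(*Hk1*/*Hk2*) turned from -0.032 to 0.039 without Day 0 replicate 2 and to 0.007 without Day 3 replicate 2, within -0.164 to 0.039 over the libraries left out, and that of log2(*Ldhb*/*Ldha*) stayed between -0.353 and -0.197 when a library was left out. The replicate block, which pairs the libraries by number, changed no call of a member other than that of *Slc16a1* from Day 0 to Day 1, and the paired slopes gave exact permutation p of 0.146 and 0.812. The cause of these changes was not tested. Depth limits *Hk2* and *Slc16a1* most, with as few as 10 and 17 fragments in a library. With 2 libraries per day, no screen for results that need a closer look was run.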
